A study of Mus musculus with 28 samples.

Results

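Bc1 RNA and 7 genes for regulators of translation that work with or beside the fragile X protein FMRP were followed through the amygdala of drinking and non-drinking mice. The members were chosen by gene symbol in the GENCODE M21 annotation and were looked up in the count tables of both batches. All 8 were found and all 8 passed a minimum mean of 10 counts per mouse, among 16266 genes that passed it and 49477 genes listed in both tables. They are *Bc1*, *Fmr1*, *Fxr1*, *Fxr2*, *Cyfip1*, *Cyfip2*, *Pabpc1* and *Eif4a1*.

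BC1 is a short non-coding RNA of rodent neurons that is made by RNA polymerase III and carried into dendrites, where it represses the start of translation. It is known to act on the helicase eIF4A and on the poly(A)-binding protein, 2 parts of the machinery that recruits ribosomes to capped mRNA. FMRP, the product of *Fmr1*, binds many synaptic mRNAs and holds back their translation, in part through CYFIP1, which also binds the cap-binding protein eIF4E. Whether BC1 and FMRP act together has been debated.

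All mice were C57BL/6J females, 7 weeks old at purchase and housed singly. Water mice (n = 10) were given no ethanol, Acute Drinking mice (n = 9) had a bottle of 20% ethanol on a single day, day 28, and Chronic Drinking mice (n = 9) had it every other day over 28 days, in each case beside water. Punches that took in the basolateral and the central amygdala of both sides were collected on day 29. There were 2 batches, with 4 Water, 4 Acute and 3 Chronic mice in the first, and 6, 5 and 6 in the second. Each mouse was a separate library.

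Total counts were between 20004380 and 22569562 per mouse. The defining neuronal genes were far above 0 in each library, with 10 neuron markers summing to between 7112 and 8310 CPM (counts scaled by library size), and so were 6 central amygdala markers, at 339 to 473 CPM. Most of the counts in the latter sum were those of *Sst* (mean count 5470), so that the sum mainly follows that gene. Genes of the choroid plexus, which lies outside the amygdala, ranged from 12.6 to 4360 CPM between punches. In bulk tissue, fewer cells of a type and less RNA per cell cannot be told apart.

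The transcript of *Bc1* (ENSMUSG00000115783) is shown because its A-rich middle is the stretch that the poly(A)-binding protein can hold, and because other transcripts share part of its sequence. The gene has a single exon of 168 bases at chr7:144914470-144914637 on the plus strand of GRCm38, is annotated as a long intergenic non-coding RNA, and overlaps no other annotated gene. The sequence is that of the GENCODE M21 transcript, and capitals mark runs of at least 4 A.
Bc1: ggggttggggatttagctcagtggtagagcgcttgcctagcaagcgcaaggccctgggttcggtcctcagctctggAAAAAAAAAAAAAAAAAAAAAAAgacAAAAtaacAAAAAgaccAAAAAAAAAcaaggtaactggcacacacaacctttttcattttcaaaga
Bases 77 to 128 hold 4 such runs with 41 A among them, and the longest has 23 A, from base 77 to base 99. A run of A at least that long was found in transcripts of 1.85% of the genes tested, *Pabpc1* among them with 23.

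The 11-base consensus of the A box of a polymerase III promoter matched bases 14 to 24 of *Bc1*. Among 32851 RefSeq promoter windows of GRCm38.p6, each with 250 bases before and 50 after a gene's start, 1.24% held that motif on either strand, the window of *Bc1* included. GGTTCG, the core of the B box, matched bases 57 to 62 of the transcript, past the end of its window, and was in 4.72% of the windows. The 2 motifs do not overlap, and a match describes letters and not a bound site.

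Of the 138 stretches of 31 bases in *Bc1*, 42.0% also occurred in transcripts of other genes, 19 in all. The 14 of these that were tested had mean levels from 0.955 to 336 CPM. A quantifier that works from transcript sequence could divide such reads between genes, so the level of *Bc1* is uncertain to that extent. *Eif4a1* shared 31.1% of its stretches, most with the pseudogene *Eif4a-ps4*, *Pabpc1* 16.1%, and *Cyfip1* 12.9%, most with *Nipa2*, which overlaps it on the opposite strand. On the opposite strand *Fxr1* overlaps *Dnajc19* and *Cyfip2* overlaps *Fndc9*. *Fmr1* shared 3.52% and *Fxr1* 3.51%, *Fxr2* shared 0.0536%, and *Cyfip2* shared 0.

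Per kilobase of its longest annotated transcript, *Bc1* stood above the other members in Water mice, at 1229 ± 436 CPM per kb (SD, n = 10). *Cyfip2* followed at 157 ± 15.9 CPM per kb, then *Pabpc1* at 68.1 ± 2.19 and *Eif4a1* at 61.0 ± 3.27. *Fxr2* was at 37.3 ± 1.53 CPM per kb, *Fxr1* at 18.4 ± 0.898, *Cyfip1* at 14.4 ± 0.577 and *Fmr1* at 13.7 ± 1.01. The ranges of the 10 mice overlapped between *Pabpc1* and *Eif4a1* and between *Cyfip1* and *Fmr1*, and between no other neighbours in that order. With the union of all exons as the length, *Eif4a1* (44.6 CPM per kb) came before *Pabpc1* (30.3 CPM per kb), and *Bc1* and *Cyfip2* stayed first. The full 168 bases of *Bc1* were used, with no allowance for reads of 100 bases or for the enrichment of mRNA. How far *Bc1* stands above the much longer coding members is thus uncertain.

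*Bc1* was higher in Chronic Drinking mice of the second batch than in Water or Acute Drinking mice, and no such difference was seen in the first batch. In the first batch, its levels were 169, 186, 103 and 106 CPM in Water mice, 106, 165, 157 and 180 CPM in Acute mice, and 223, 155 and 76.7 CPM in Chronic mice. The 3 groups overlapped throughout, and the Chronic mice held both the highest and the lowest value. In the second batch, Water mice ranged from 162 to 314 CPM with a median of 251, and the Acute mice had 169, 187, 352, 246 and 220 CPM. Chronic mice of that batch ranged from 290.3 to 823 CPM with a median of 569. Of these 6 mice, 5 were above each Water and each Acute mouse, and the sixth lay within their range.

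**Figure D1:**
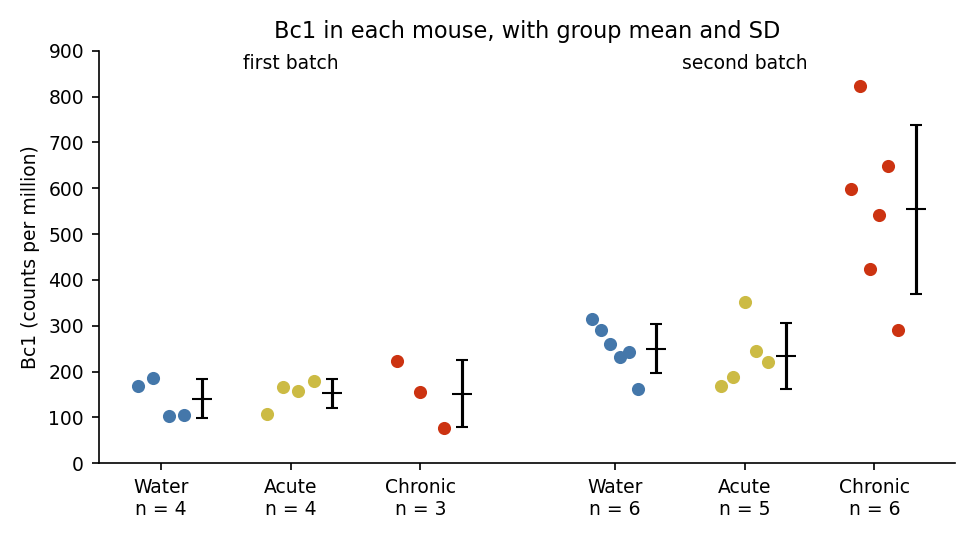
Bc1 in CPM (linear axis from 0) in each of the 28 mice, by batch and group. Points are mice and bars are the mean and SD of a group. The 6 Chronic mice of the second batch averaged 554 CPM and the Water mice of that batch 250.1 CPM, while the first batch's groups averaged from 141 to 152 CPM.

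Over both batches, the log2 fold change of *Bc1* was 0.83 in Chronic against Water mice (standard error 0.22, edgeR adjusted p = 0.186), which did not pass the threshold of 0.05 after adjustment over all genes. By unadjusted p it ranked 55th of the 16266 genes. It was higher in 8 of 9 Chronic mice than the Water mean of their batch, and an exact permutation of the groups within batches, on log2 CPM with batch means removed, gave p = 0.0156. The study chose *Bc1* for qPCR in part by its fold change in these mice, so that this value is not independent evidence. In Chronic mice, the study's own RNA-seq and qPCR values for *Bc1* were also above Water, but both were smaller than the fold change here. Its qPCR values for *Bc1* carried no mark of significance. The Acute against Water value was 0.018 (standard error 0.22, edgeR adjusted p = 0.989) with 5 of 9 mice higher, and Chronic against Acute gave 0.82 (standard error 0.23, edgeR adjusted p = 0.998, exact permutation p = 0.0278, 8 of 9 mice higher).

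Within the first batch, the mean log2 CPM of *Bc1* in Chronic mice differed from that in Water mice by 0.027 (exact permutation p = 1, with 0.0286 the smallest that 35 regroupings allow). Within the second batch the difference was 1.10, a 2.15-fold higher level (exact permutation p = 0.00649, 924 regroupings), and against Acute mice it was 1.21 (exact permutation p = 0.00866). These p-values are not adjusted over genes, and edgeR on the second batch alone gave *Bc1* a log2 fold change of 1.15 against Water (adjusted p = 0.0588) and 1.24 against Acute mice (adjusted p = 0.267), neither past the threshold. The batch effects on *Bc1* in Chronic against Water mice differed by 1.04 in log2 fold change (standard error 0.40, unadjusted p = 0.0151, edgeR adjusted p = 0.774), and the exact permutation of that difference gave p = 0.0663. For Chronic against Acute mice, the difference between the batches was 1.32 on log2 CPM (exact permutation p = 0.0278). For Acute against Water it was -0.20 (standard error 0.39, edgeR adjusted p = 0.999).

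In the second batch, library size moved with this result. There 5 Chronic libraries held between 20675140 and 20890964 counts, and the other 12 libraries held at most 20361343. Those 5 libraries were the 5 with *Bc1* from 424 to 823 CPM, and the sixth Chronic library, with 20135215 counts, had 290.3 CPM. In these libraries, library size and Chronic Drinking cannot be told apart, and what set their size was not tested. The first batch's 3 Chronic libraries held 22164404 to 22569562 counts, and its other 8 libraries, which overlapped them in size and in *Bc1*, 20393352 to 22548961. Leaving out any 1 of the 28 mice gave log2 fold changes between 0.70 and 0.98 over both batches (edgeR adjusted p from 0.0796 to 0.378). Of the markers of the neighbouring striatum, 8 of 8 had negative values in Chronic against Water mice (7971 of the 16266 genes tested did), with a median of -0.35, and 2 of 8 an unadjusted p under 0.05 (10.5% of all genes). In the second batch, their summed level was 570.2 to 1186 CPM in Chronic (median 717) and 579 to 1419 CPM in Water mice (median 1157). In Acute mice it was 619 to 1421 CPM (median 1055), so that the groups overlapped. Other marker lists also leaned in Chronic against Water mice (8295 of the 16266 genes tested were positive). Positive values were held by 6 of 6 central amygdala (median 0.11), 8 of 9 oligodendrocyte (median 0.083) and 0 of 8 choroid plexus markers (median -0.13). For pallial excitatory neurons it was 6 of 7 (median 0.019). Of these lists, 0 genes had an unadjusted p under 0.05 (10.5% of all genes). The striatum score had r = -0.0529 with *Bc1* across the 28 mice (permutation p = 0.783, adjusted p = 0.957; rho = 0.0580, permutation p = 0.775, adjusted p = 0.917), and by batch r was 0.632 (first) and -0.436 (second).

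**Figure D2:**
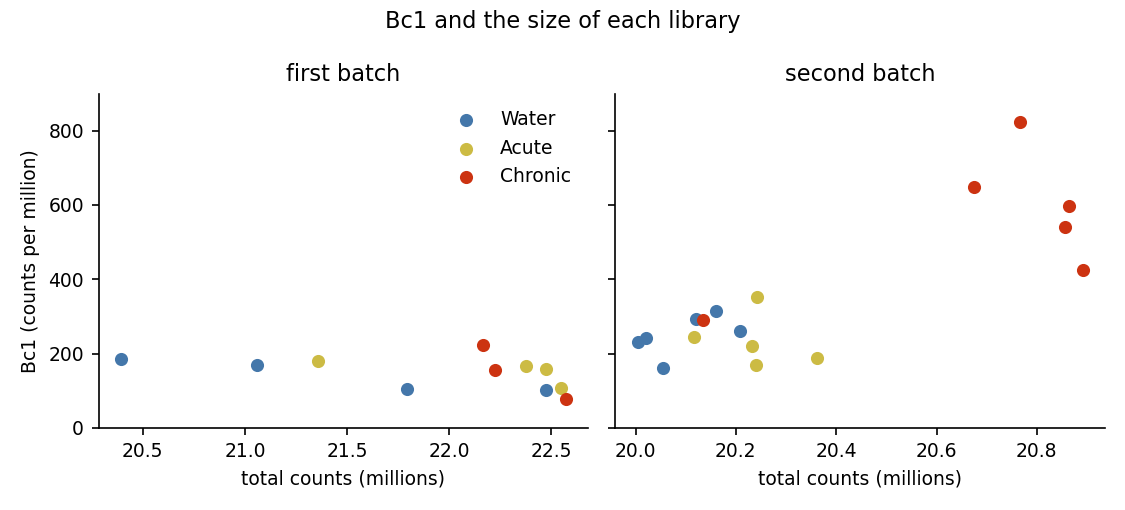
Bc1 (CPM, linear axis from 0) against the total count of each library, with 1 point per mouse. In the second batch 5 Chronic libraries lie apart at the right, from 424 to 823 CPM, while in the first batch the Chronic libraries lie among the others.

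*Bc1* varied more between mice than most genes, while the 7 coding members varied little. With batch and group means removed, the SD of its log2 CPM was 0.466, and 172 of 11723 genes at a mean of 100 counts or more had a larger one. The median gene had an SD of 0.108, *Fmr1* 0.0765, *Fxr1* 0.0829, and the other 5 members between 0.0474 in *Fxr2* and 0.0698 in *Eif4a1*. The lowest *Bc1* count in any mouse was 1741. The mean absolute deviation of *Bc1* from its batch and group median was 0.42 in Chronic, 0.25 in Acute and 0.29 in Water mice, and neither Chronic (exact permutation p = 0.410) nor Acute mice (exact permutation p = 0.690) differed detectably from Water mice in that spread.

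Counted together, 0 of 8 members passed an adjusted p of 0.05 in Acute against Water mice (0% of all genes), 0 of 8 in Chronic against Water mice (0.0184% of all genes) and 0 of 8 in Chronic against Acute mice (0% of all genes). At an unadjusted p under 0.05, edgeR found 0 of 8 members in Acute against Water mice (9.52% of all genes), 3 of 8 in Chronic against Water mice (10.5% of all genes) and 1 of 8, *Bc1*, in Chronic against Acute mice (4.44% of all genes). The 3 were *Bc1* and *Fxr2*, both higher in Chronic mice, and *Fmr1*, which was lower. The median log2 fold change of the members was -0.0035 in Acute and -0.015 in Chronic mice, beside 0.0011 and 0.0022 over all genes, and both comparisons share the Water mice.

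**Figure D3:**
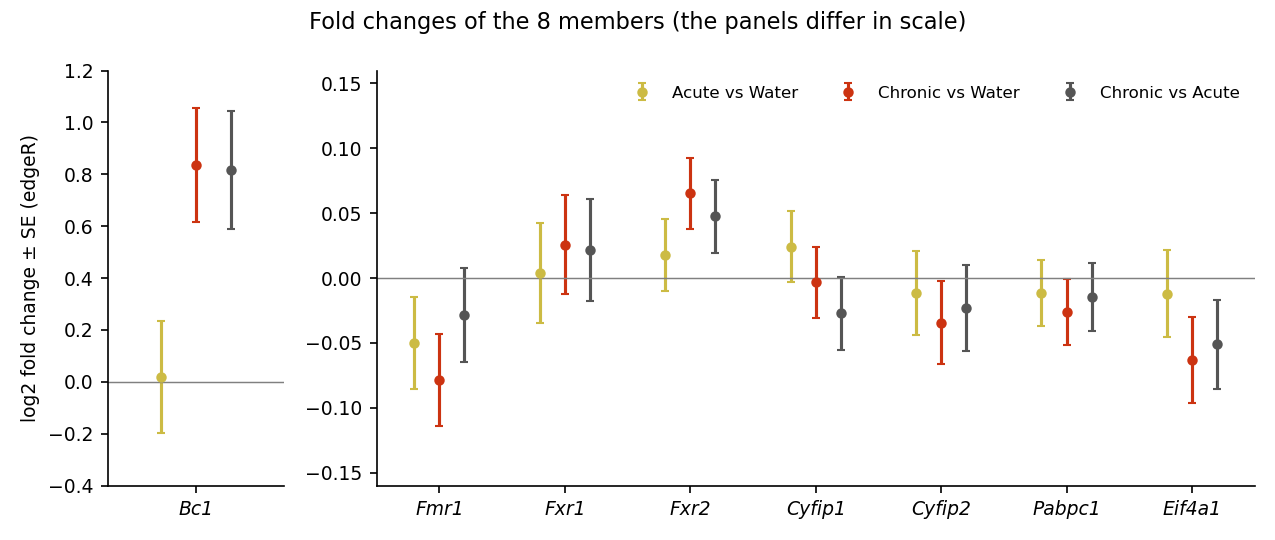
Log2 fold change with its standard error (edgeR, batch as covariate, 28 mice) of each member in the 3 comparisons. The left panel, for Bc1, spans a wider range than the right one, in which the 7 coding members lie between -0.078 and 0.065.

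*Fmr1* (ENSMUSG00000000838, X chromosome, 68678541 to 68717963, plus strand of GRCm38, as for the members that follow) encodes FMRP. In the first batch it was at 66.3, 62.2, 59.7 and 69.1 CPM in Water mice, at 54.9, 63.1, 62.0 and 62.2 CPM in Acute mice and at 63.0, 56.2 and 62.2 CPM in Chronic mice. In the second batch, Water mice ranged from 55.1 to 60.9 CPM (median 57.4), Acute mice had 58.6, 57.9, 52.3, 54.9 and 60.1 CPM, and Chronic mice ranged from 51.8 to 58.9 CPM (median 54.7). The groups overlapped in both batches, and 8 of 9 Chronic mice lay below the Water mean of their batch. The log2 fold change was -0.078 in Chronic mice (standard error 0.035, edgeR adjusted p = 0.433, exact permutation p = 0.0301) and, for Acute mice, -0.050 with a standard error of 0.035 (edgeR adjusted p = 0.658). By batch, its Chronic value was -0.090 in the first and -0.070 in the second.

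*Fxr2* (ENSMUSG00000018765, chromosome 11, 69632990 to 69653297, plus strand) and *Fxr1* (ENSMUSG00000027680, chromosome 3, 34019943 to 34070322, plus strand) encode the autosomal relatives of FMRP, which bind RNA and can pair with it. *Fxr2* was at 114, 109.7, 116 and 116 CPM in first-batch Water mice, at 112, 113, 109 and 105 CPM in Acute mice and at 109, 115 and 113 CPM in Chronic mice. In the second batch, Water mice ranged from 104 to 112.0 CPM (median 107), Acute mice had 112, 117, 109, 119 and 108 CPM, and Chronic mice ranged from 111.7 to 122 CPM (median 116). There 5 of 6 Chronic mice were above each Water mouse, while in the first batch no Chronic mouse was.

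The log2 fold change of *Fxr2* over both batches was 0.065 in Chronic mice (standard error 0.028, edgeR adjusted p = 0.391, exact permutation p = 0.0166, 7 of 9 mice higher) and, for Acute mice, 0.018 with a standard error of 0.028 (edgeR adjusted p = 0.876). Between the batches, its Chronic value went from -0.019 to 0.12, and the batch difference was 0.13 (standard error 0.051, unadjusted p = 0.0145, edgeR adjusted p = 0.774, exact permutation p = 0.0055). Its Acute value went from -0.056 to 0.070, with a batch difference of 0.12 (standard error 0.050, unadjusted p = 0.0211, edgeR adjusted p = 0.999, exact permutation p = 0.0122). Both rest on the same 10 Water mice. Batch differences with an unadjusted p under 0.05 were found for 2 of 8 members in Chronic mice (6.15% of all genes), *Bc1* and *Fxr2*, and for 1 of 8 in Acute mice (4.13% of all genes), and with an adjusted p under 0.05 for 0 of 8 in Chronic (0.00615% of all genes) and 0 of 8 in Acute mice (0% of all genes).

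*Fxr1* was lower in level and showed no detectable difference. It ranged from 51.6 to 60.4 CPM in Water mice (median 55.0), from 49.9 to 61.5 CPM in Acute mice (median 55.4) and from 50.6 to 60.2 CPM in Chronic mice (median 57.2). The fitted log2 fold changes were 0.0042 for Acute (edgeR adjusted p = 0.984) and 0.026 for Chronic mice (edgeR adjusted p = 0.859).

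*Cyfip1* (ENSMUSG00000030447, chromosome 7, 55841745 to 55932602, plus strand) and *Cyfip2* (ENSMUSG00000020340, chromosome 11, 46193850 to 46312859, minus strand) encode partners of FMRP that also belong to the WAVE complex, which drives actin branching. *Cyfip1* ranged from 86.4 to 98.9 CPM in Water mice, from 89.5 to 99.4 CPM in Acute mice and from 86.9 to 99.2 CPM in Chronic mice. The fitted log2 fold changes were 0.024 for Acute (standard error 0.027, edgeR adjusted p = 0.814) and -0.0032 in Chronic mice (standard error 0.027, edgeR adjusted p = 0.977), a value whose sign turned under some settings.

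*Cyfip2* stood at 1049 ± 106 CPM in Water (n = 10), 1032 ± 88.0 CPM in Acute (n = 9) and 1034 ± 83.1 CPM in Chronic mice (n = 9). Its spread over both batches was mostly a step between them, since Water mice averaged 940 CPM in the first batch and 1121 CPM in the second. Its log2 fold changes were -0.011 (edgeR adjusted p = 0.943) and -0.034 (standard error 0.032, edgeR adjusted p = 0.745). *Bc1* had a step in the same direction, from a mean of 141 to 250.1 CPM in Water mice.

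*Pabpc1* (ENSMUSG00000022283, chromosome 15, 36595661 to 36609668, minus strand) encodes the cytoplasmic poly(A)-binding protein, and *Eif4a1* (ENSMUSG00000059796, chromosome 11, 69666936 to 69672423, minus strand) an eIF4A helicase. *Pabpc1* was at 198 ± 6.39 CPM in Water, 197 ± 6.83 CPM in Acute and 194 ± 10.4 CPM in Chronic mice, with log2 fold changes of -0.012 in Acute (edgeR adjusted p = 0.920) and -0.026 in Chronic mice (standard error 0.026, edgeR adjusted p = 0.754).

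*Eif4a1* was at 179, 180, 191 and 195 CPM in first-batch Water mice, at 179, 171, 186 and 175 CPM in Acute mice and at 173, 157 and 179 CPM in Chronic mice. The 3 first-batch Chronic mice lay below all 4 Water mice there, the highest of them by less than 1 CPM, with a mean difference of -0.14 on log2 CPM (exact permutation p = 0.0286, the smallest possible). In the second batch the Chronic mice ranged from 182 to 208 CPM (median 196) and the Water mice from 188 to 216 CPM (median 195), with a difference of -0.020 (exact permutation p = 0.636). Over both batches, the log2 fold change in Chronic mice was -0.063 (standard error 0.033, edgeR adjusted p = 0.515, exact permutation p = 0.102), and for Acute mice -0.012 (standard error 0.033, edgeR adjusted p = 0.941).

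**Figure D4:**
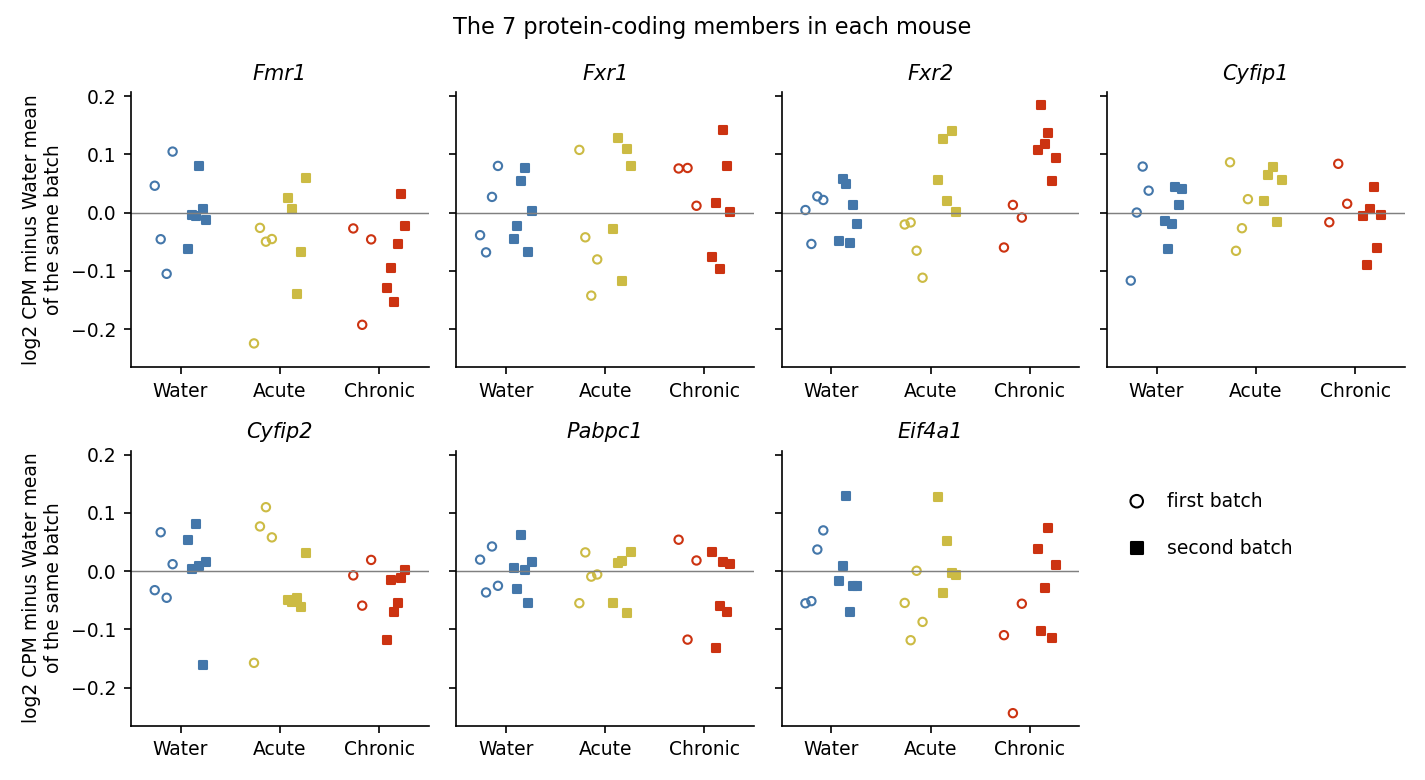
Log2 CPM of the 7 coding members in each mouse, less the mean of the Water mice of its batch, for the first batch (open circles) and the second (filled squares). Of the second-batch Chronic mice, 6 of 6 are above 0 for Fxr2 and 5 of 6 are below 0 for Fmr1.

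The other genes of the same machinery were taken as lists. Of 15 tested factors of the cap-binding complex eIF4F and of the poly(A)-binding proteins, 0 passed the adjusted threshold in any comparison, and at an unadjusted p under 0.05 there was 1 lower gene in Acute (9.52% of all genes, in either direction) and 1 in Chronic mice (10.5% of all genes). Both were *Eif4e3*, an unusual cap-binding protein, with log2 fold changes of -0.11 in Acute (edgeR adjusted p = 0.502) and -0.12 in Chronic mice (edgeR adjusted p = 0.433). *Eif4b* and *Paip1*, helpers of the helicase and of the poly(A)-binding protein, had values of -0.051 and -0.056 in Chronic mice, and *Eif4a2*, the neuronal relative of *Eif4a1*, -0.018. The list's median was -0.012 in Chronic mice, beside 0.0022 for all genes.

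Among 19 tested proteins of RNA granules or known to bind BC1, 14 had negative values in Chronic mice, as did 7971 of all 16266 genes, with a median of -0.047 beside 0.0022 for all genes. At an unadjusted p under 0.05, 3 of 19 were lower and 0 higher (919 and 783 of all genes, 10.5% together), and 0 passed after adjustment. *Syncrip*, a dendritic mRNA-binding protein, had -0.10 (standard error 0.028, edgeR adjusted p = 0.214), *Cpeb2*, which controls polyadenylation in the cytoplasm, -0.11 (edgeR adjusted p = 0.260), and *Caprin1*, a granule scaffold, -0.062 (edgeR adjusted p = 0.380). For Acute mice these were -0.050, -0.042 and -0.038, *Cpeb4*, a relative of *Cpeb2*, had -0.083 (edgeR adjusted p = 0.526), and the list's median was -0.031 beside 0.0011 for all genes, with 0 genes below an unadjusted p of 0.05 (9.52% of all genes).

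Of 10 WAVE complex genes, 1 was higher and 1 lower at an unadjusted p under 0.05 in Chronic mice (10.5% of all genes), and the median was -0.017. *Abi3*, the subunit of microglia, had 0.18 in Chronic (edgeR adjusted p = 0.369) and 0.18 in Acute mice, and *Abi2* -0.078 (edgeR adjusted p = 0.295) and -0.040; *Nckap1* had -0.051 in Chronic mice. Of 12 mRNAs known as FMRP targets, 0 reached an unadjusted p under 0.05 against Water in Acute (9.52% of all genes) or Chronic mice (10.5% of all genes), with a median of -0.0074 in Chronic mice. *Map1b*, the classic target, had -0.081 in Acute and -0.059 in Chronic mice, *Shank3* -0.080 and -0.044, *Kcnd2* 0.028 and -0.100, *Kcnc1* -0.0052 and 0.048, and *Ppp2ca* 0.050 and 0.017.

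Of 15 genes of mTOR signalling and elongation control, an unadjusted p under 0.05 was reached by 2, both higher, in Acute mice (9.52% of all genes), and 1 was higher in Chronic mice (10.5% of all genes in either direction). *Akt1*, the kinase upstream of mTOR, had 0.088 in Acute (edgeR adjusted p = 0.407) and 0.086 in Chronic mice (edgeR adjusted p = 0.277). *Rps6*, the ribosomal protein that the pathway phosphorylates, had 0.14 and 0.091. In each of the 5 lists 0 genes passed after adjustment, and the comparisons with Water share those mice.

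Of 9 other short or structural RNAs listed, all but *Terc* made by polymerase III, *Rn7sk* and *Rn7s1* were tested. *Rn7s1*, the RNA of the signal recognition particle, was at 3.24 CPM in Water, 2.25 CPM in Acute and 4.02 CPM in Chronic mice, and its log2 fold change in Chronic mice was 0.25 (standard error 0.26, edgeR adjusted p = 0.767). *Rn7sk* was at 1.05, 0.790 and 1.21 CPM, with 0.12 (edgeR adjusted p = 0.915). Both were thinly counted, with means of 20.5 (*Rn7sk*) and 64.2 counts (*Rn7s1*) and lowest counts of 2 and 16. Such values say little on whether these RNAs moved with *Bc1*. Their Chronic values were 0.0051 and 0.26 in the first batch and 0.14 and 0.23 in the second, for *Rn7sk* and *Rn7s1* in that order, beside 0.11 and 1.15 for *Bc1*. Against Acute mice, *Rn7s1* had 0.65 (standard error 0.27, unadjusted p = 0.0239, edgeR adjusted p = 0.998).

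Of the genes that carry ribosomal RNA-like sequence, 5 of 6 were tested. *mt-Rnr1* and *mt-Rnr2*, the mitochondrial rRNAs, had 0.022 and 0.041 in Chronic mice, and *CT010467.1*, *Mir6236* and *Lars2* had 0.13, 0.21 and 0.099. In Acute mice the last 3 had 0.85, 0.63 and 0.33 (edgeR adjusted p = 0.136, 0.148 and 0.194). *CT010467.1*, *Mir6236* and *Lars2* thus had larger values in Acute mice, where *Bc1* had 0.018. The genes tested that share 31-base stretches with *Bc1* had log2 fold changes from -0.13 to 0.14 in Chronic mice, with a median of -0.034, beside 0.83 for *Bc1*. *Akap5*, with 47 shared stretches, was the 1 of these 14 at an unadjusted p under 0.05 (10.5% of all genes), with -0.13 (edgeR adjusted p = 0.410).

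Across the 28 mice, log2 CPM of *Bc1* with batch means removed was set against 22 measures, the 7 other members, 11 marker scores, the scores of the short RNA and rRNA-like lists, library size and the mitochondrial share. None passed after adjustment over the 22. The smallest p was that of *Cyfip1*, which was lower where *Bc1* was higher (Pearson's r = -0.486, permutation p = 0.00693, adjusted p = 0.152; Spearman's rho = -0.502, permutation p = 0.00699, adjusted p = 0.154). Without the 2 mice farthest from the median of *Bc1*, both Chronic, r was -0.321, and within the batches it was -0.471 (n = 11) and -0.538 (n = 17). *Fmr1* (r = -0.272), *Fxr1* (-0.173), *Fxr2* (0.277), *Cyfip2* (0.00648), *Pabpc1* (-0.234) and *Eif4a1* (-0.331) had adjusted p-values from 0.626 to 0.973 in these permutations, and Spearman's rho between -0.290 and 0.195.

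The marker scores had r from -0.331 for the central amygdala and -0.210 for astrocytes to 0.191 for microglia, with adjusted permutation p-values of at least 0.626. By batch, first and second in turn, r was -0.658 and 0.101 for the choroid plexus, -0.630 and -0.0282 for astrocytes, 0.625 and 0.0798 for microglia and -0.126 and -0.443 for the central amygdala (n = 11 and 17, not tested by batch). With the group means removed as well, the central amygdala had the lowest p (r = -0.506, permutation p = 0.00673, adjusted p = 0.148; rho = -0.446, permutation p = 0.0206, adjusted p = 0.227), and *Cyfip1* had r = -0.442. Library size fell into separate clusters in the second batch, so that no pooled correlation with it is given, and its pooled test says nothing of a relation. Its r with *Bc1* was -0.489 among first-batch mice and 0.803 among second-batch mice, the latter across those clusters.

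By the same measure over 11722 other genes, the genes most like *Bc1* were *Tma7* (r = 0.737), *Cops9* (0.637), *Ndufb9* (0.635), *Parvg* (0.632) and *Rpl38* (0.626), and the least like were *Rfwd3* (-0.772), *Nolc1* (-0.753) and *Dhx30* (-0.725). Of all genes, 1% had r above 0.473 and 1% below -0.524. In the first batch the 5 most like genes had r between 0.0018 for *Ndufb9* and 0.338 for *Tma7*, and in the second between 0.720 and 0.821, whereas *Rfwd3* had -0.824 in the first and -0.779 in the second. The longest transcripts of *Tma7*, *Cops9*, *Ndufb9* and *Rpl38* have 944, 653, 704 and 457 bases, that of *Parvg* 2700, and those of *Rfwd3*, *Nolc1* and *Dhx30* 4443, 3634 and 4623. With the genes in 5 classes of like size by transcript length, a split chosen after the values were seen, 69.4% of the shortest class, up to 2159 bases, had a positive r and the median was 0.104, while from 4168 to 5642 bases 34.1% did and the median was -0.0909. In the longest class, from 5644 bases, the share was 39.6% and the median -0.0488, so that the medians did not fall steadily with length. These are descriptions across genes, which share the same 28 libraries.

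**Figure D5:**
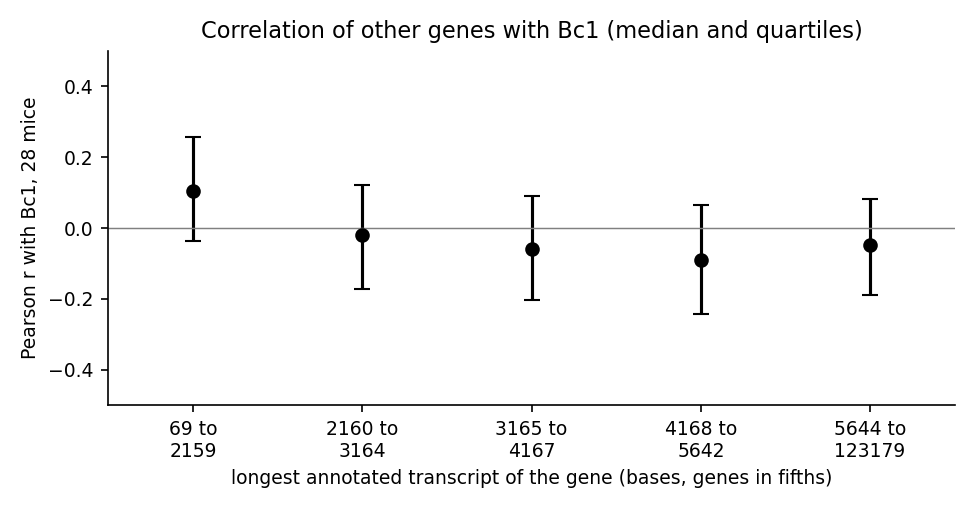
Pearson's r between Bc1 and other genes across the 28 mice (log2 CPM, batch means removed), for 5 classes of genes by the length of their longest annotated transcript. Points are medians and bars span the quartiles, and the median falls from 0.104 in the shortest class to -0.0909 in the class from 4168 to 5642 bases and is -0.0488 in the longest.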

How the data were processed

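Per the labels, libraries were made after enrichment of mRNA and removal of rRNA, and the study's methods give paired-end reads of 100 bases. The authors checked reads with FastQC 0.11.8, quantified them with Salmon 0.14.1 on GRCm38, summarized them by gene and deposited 2 tables of whole-number raw counts, 1 per batch; tools and versions follow the submitters' processing notes. Strandedness is not given in the sources used here, so reads of a gene and of an antisense neighbour cannot be told apart.

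The tables were joined on the Ensembl identifier without its version (49477 shared genes), and 16266 genes averaging 10 counts or more were kept. Groups were compared with edgeR 4.0.16 in R 4.3.3 (quasi-likelihood test, TMM, batch as covariate, 28 mice, Benjamini-Hochberg over all genes kept, threshold 0.05). CPM are TMM-scaled, and log2 CPM has a prior count of 2. Exact tests are two-sided and permute groups within batches over every regrouping (32340 against Water, whose smallest p is 3.09e-05, and 16170 for Chronic against Acute). They were run on the group difference for 24 pairs of member and comparison, with 48 more within batches. The same 24 pairs were also tested for a difference in spread and for a difference between the batches. None of these exact tests is adjusted. Correlations used 100000 resamples. DESeq2 1.42.0, limma 3.58.1 and ComBat-seq (sva 3.50.0) served as alternatives. On simulated data for Chronic against Water, 200 of 16266 genes were given a change. Of these changes, edgeR recovered 94% of those of 0.5 and 99% of those of 1 on the log2 scale, with 10 false calls. The recovery was not split by level or by spread between mice, so it says little of a gene as variable as *Bc1*. No pair of libraries within a batch and group was a duplicate.

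The members and lists were chosen with earlier results of these data known. Named were all members, for each pathway list the 3 genes with the smallest p in Chronic and the 2 in Acute mice, every tested gene of the short RNA and rRNA-like lists, and the 5 genes most and 3 least like *Bc1*. *Akap5*, *Nipa2*, *Dnajc19*, *Fndc9*, *Eif4a-ps4* and *Sst* were named after their values were seen. The list genes *Paip2*, *Pdcd4*, *Pura*, *Rmrp*, *Rn7s2* and *Opalin* were not analysed here, and 1 gene of the mTOR list is not reported here. RefSeq supplied promoter windows. Each mouse is a separate sample per the labels. The counting error of a gene follows its own count.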

Additional observations from a re-analysis of the deposited data

Results flagged for a closer look

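Of 24 sets of a member in a group, 0 held a mouse that stood apart from the rest of its group. Of 24 batch differences tested by exact permutation, 3 had an unadjusted p under 0.05. For *Bc1* in Chronic against Acute mice, the difference on log2 CPM was 1.32 larger in the second batch (exact permutation p = 0.0278). For *Fxr2*, the second batch's difference from Water was larger by 0.13 in Chronic mice (exact permutation p = 0.0055) and by 0.12 in Acute mice (exact permutation p = 0.0122), and these share the Water mice. The exact tests were not adjusted, and edgeR's batch differences of the comparisons with Water had adjusted p-values of 0.774 for *Bc1* and *Fxr2* in Chronic mice and 0.999 for *Fxr2* in Acute mice.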

How the results depend on the processing

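No member was called in Acute against Water or Chronic against Acute mice under any of the 11 alternatives or the 28 fits without 1 mouse. In Chronic against Water mice, *Bc1* was called under ComBat-seq followed by DESeq2 alone, which made 1 member called (0.87, adjusted p = 0.0242), beside an adjusted p of 0.0588 in the second batch alone, 0.0596 by DESeq2 with batch as a covariate and 0.0796 to 0.378 without 1 mouse; over the 11 alternatives its log2 fold change ran from 0.11 to 1.15. Genes called in Acute mice numbered 1 without a filter, 9 by DESeq2 with batch, 30 by ComBat-seq and DESeq2 and 3 by limma-voom, and 0 to 2 without 1 mouse (1 without Acute mouse 34, 2 without Chronic mouse 38). In Chronic mice they numbered 38, 88 and, in the first batch alone, 0, with 2 to 6 without 1 mouse (6 without Water mouse 3 of the second batch); against Acute mice, 1 without a filter and 1 by limma-voom, and 0 by edgeR, where 723 genes had an unadjusted p under 0.05.

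Values near 0 changed sign. *Bc1* in Acute mice was -0.091 in the second batch alone, -0.036 with the replicate block, -0.0068 in a fit of both groups only and -0.051 to 0.10 without 1 mouse, and its spread difference was -0.091 to 0.020. In Chronic against Acute mice of the first batch *Bc1* was at -0.00035. In the first batch alone, Acute values were -0.040 for *Fxr1*, -0.056 for *Fxr2* and 0.022 for *Cyfip2*, and Chronic values -0.019 for *Fxr2*, 0.026 for *Cyfip1* and, against Acute, 0.024 for *Cyfip1*. In the second, they were 0.027 for *Eif4a1* in Acute and -0.026 for *Fxr1* in Chronic against Acute mice. Limma-voom gave -0.0070 for *Fxr1* in Acute and 0.0017 for *Cyfip1* in Chronic mice, and no filter 0.0025 for the latter. Without 1 mouse, the ranges were -0.015 to 0.022 for *Fxr1*, -0.029 to 0.0082 for *Cyfip2* and -0.027 to 0.0016 for *Eif4a1* in Acute, -0.016 to 0.0084 for *Cyfip1* in Chronic and -0.024 to 0.0020 for *Pabpc1* in Chronic against Acute mice. The cause was not tested.

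Mouse numbers of the second batch did not pair the mice: 5 of 16 same-numbered pairs had deviations that correlated above 0.1, from -0.536 to 0.423, and 0 of 17 mice correlated best with a mouse of their own number. With the replicate block, the genes called stayed at 0, 3 and 0, and *Bc1* in Chronic mice had 0.82 (adjusted p = 0.221). With the union of exons as length, Water levels were 29.3 CPM per kb for *Fxr2*, 8.44 for *Fxr1*, 7.79 for *Cyfip1* and 6.73 for *Fmr1*.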
